A study of Mus musculus with 9 samples.

Results

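The sites described here are EWS/ATF1 binding sites found in sarcoma-iPSC MEFs and not in the mouse sarcoma cell line G1297, although a G1297 binding site lies close by. They were chosen by position alone. A site was taken when a peak called in the MEFs overlapped no G1297 peak by even 1 bp and the gap between its edge and the edge of the nearest G1297 peak on the same chromosome was at most 5000 bp. In all, 1693 of the 27130 MEF peaks met this rule, and they covered 1722171 bp. They made up 7.66% of the 22102 MEF peaks that overlapped no G1297 peak (MEF-only peaks). The other 20409 MEF-only peaks lay more than 5000 bp from a G1297 peak, or on a chromosome without one, and are called remote. The remaining 5028 MEF peaks overlapped a G1297 peak and are called shared.

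EWS/ATF1 was mapped by ChIP-Seq, in which DNA bound by a protein is recovered with an antibody and sequenced, here with an antibody against the hemagglutinin (HA) tag of the fusion protein. G1297 is a single line of mouse sarcoma cells in which EWS/ATF1 is switched on by doxycycline (Dox) through the reverse tetracycline transactivator. The MEFs are embryonic fibroblasts taken from chimeric embryos that had been made with an iPSC clone reprogrammed from such sarcoma cells. They therefore carry the Dox-inducible EWS/ATF1 alleles and part of the chromosomal changes of the sarcoma, and they were selected with puromycin. Both cell types were given 0.2 µg/ml Dox for 12 h before ChIP. The labels describe 2 ChIP libraries of G1297 and 1 of the MEFs, but the deposited data hold 1 peak list per cell type. Replicate error is thus unknown for every value below, and the intervals given are 95% intervals that cover counting error only.

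EWS/ATF1 is the fusion oncoprotein of clear cell sarcoma. It joins the amino-terminal, transcription-activating part of EWSR1 to the basic leucine zipper of ATF1, which recognises cyclic AMP response elements in DNA. Enhancers and promoters often hold several neighbouring binding sites of a factor, and which of them are occupied can differ from one cell type to another. Each peak carries a score from the peak caller MACS, minus 10 times the log10 of its P value, and a score of 90 was the lowest allowed. The score grows with read depth and with enrichment, so scores were compared only within a list.

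Counted per 1 kb of gap, MEF-only peaks were more numerous near a G1297 peak than farther from one. Their number fell with distance without a step at 5000 bp. Within the first 1 kb of a G1297 peak there were 416 MEF-only peaks. The next 4 bins of 1 kb held 373, 309, 309 and 286. Just past the limit, the bin from 5 to 6 kb held 246. The mean was 338.6 MEF-only peaks per 1 kb of gap from 0 to 5 kb, 218 from 5 to 10 kb, 167.2 from 10 to 15 kb and 151.4 from 15 to 20 kb, a ratio of 2.24 (2.05 to 2.44) between the nearest and the farthest of these ranges. The 5000 bp limit thus divides a gradient in these counts, which were not divided by the length of sequence available at each gap. With MEF peaks within 1000 bp joined, the ratio was 1.66 (1.51 to 1.82). The gap of the sites had a median of 2208 bp (2081 to 2327). Only 17 of the 1693 sites were within 100 bp of the G1297 peak and 179 (10.6%) were within 500 bp. Few of them thus missed an overlap with a G1297 peak by a short distance.

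**Figure D1:**
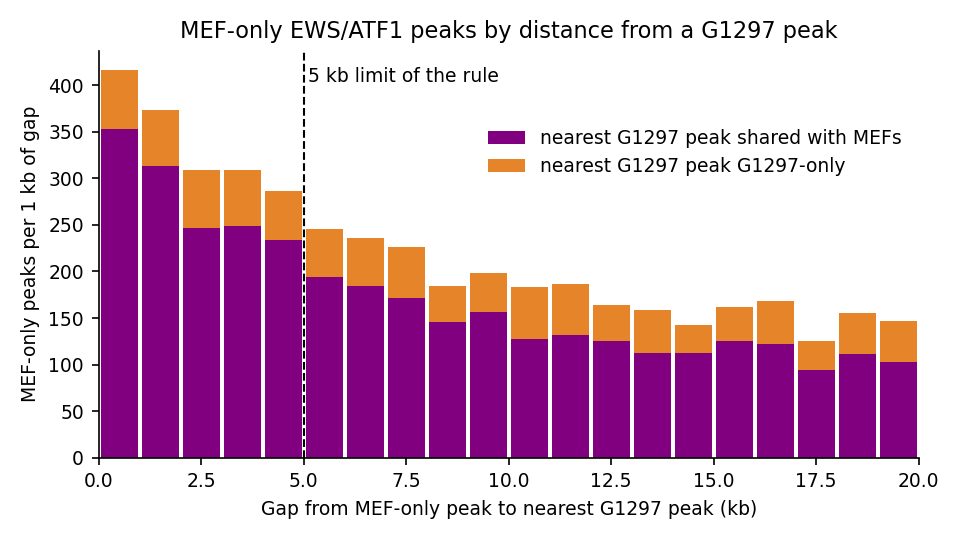
MEF-only peaks by gap to the nearest G1297 peak, in bins of 1 kb (x axis, kb; y axis, peaks per bin), split by whether that G1297 peak overlapped another MEF peak (purple) or none (orange). The dashed line marks the 5 kb limit, and the bins decline from 416 in the first to 147 in the last with no step at it.

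The site with the smallest gap was chr19:24000019-24000610 (mm9, as are all positions here), 40 bp from a G1297 peak, with a MEF score of 100.31. Next was chr5:21009910-21010799 at 42 bp with a score of 197.48. The last of the 3 was chr4:59252061-59252934 at 49 bp with a score of 170.14, and its G1297 peak was G1297-only, whereas those beside the other 2 also overlapped a MEF peak of their own. The sites closest to the limit on its inner side had gaps of 4989, 4986 and 4984 bp and MEF scores of 347.36, 169.55 and 173.93. The MEF-only peaks closest to it on the outer side had gaps of 5001, 5004 and 5007 bp and scores of 185.95, 683.31 and 104.61. All 6 of these peaks around the limit had a shared G1297 peak as their neighbour, and nothing in their scores separates the sides.

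Most of the sites lay beside a G1297 peak that was bound in MEFs as well. The nearest G1297 peak overlapped another MEF peak (a shared G1297 peak) for 1396 of 1693 sites, or 82.5% (80.6 to 84.2). It was G1297-only for the other 297. Among all 8090 G1297 peaks, 62.8% were shared. Counting each G1297 peak once, 81.3% (79.2 to 83.2) of the 1446 G1297 peaks with such a site beside them were shared, against 58.8% (57.6 to 60.0) of the 6644 without one. From the G1297 side, 1175 of 5084 shared peaks (23.1%, 22.0 to 24.3) had a MEF-only site assigned to them, and 271 of 3006 G1297-only peaks did (9.02%, 8.02 to 10.1).

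This share also changed gradually with distance. It was 84.9% for sites with a gap of up to 1 kb and 81.8% for those from 4 to 5 kb. For MEF-only peaks outside the limit it was 78.1% from 5 to 10 kb, 73.1% from 10 to 20 kb, 69.6% from 20 to 50 kb and 67.9% beyond 50 kb. Thus even remote MEF-only peaks had a shared G1297 peak as their nearest more often than the 62.8% of all G1297 peaks, and the sites within 5000 bp formed the upper end of the range.

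In score and width the sites were close to remote MEF-only peaks and below shared peaks. Their median MEF score was 262.7 (249.8 to 283.2), against 272.9 (268.6 to 277.9) for remote MEF-only peaks and 753.9 (720.1 to 793.8) for shared MEF peaks. A score of at least 500 was reached by 502 sites (29.7%, 27.5 to 31.9). The same score was reached by 30.0% of remote, 61.7% of shared and 35.8% of all MEF peaks. The median width was 924 bp for the sites, 937 bp for remote and 1176.5 bp for shared peaks. Sites beside a shared G1297 peak had a median score of 273.9 (253.9 to 295.8), and those beside a G1297-only peak had a median of 234.1 (212.6 to 267.8). The former interval overlaps that of remote peaks and the latter lies just below it. The median score did not follow the gap, at 263.3 in the first 1 kb and 288.6 in the last. Over all 1693 sites, the median differed from that of remote peaks by less than its counting error, whereas the 297 sites beside a G1297-only peak had the lower median.

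**Figure D2:**
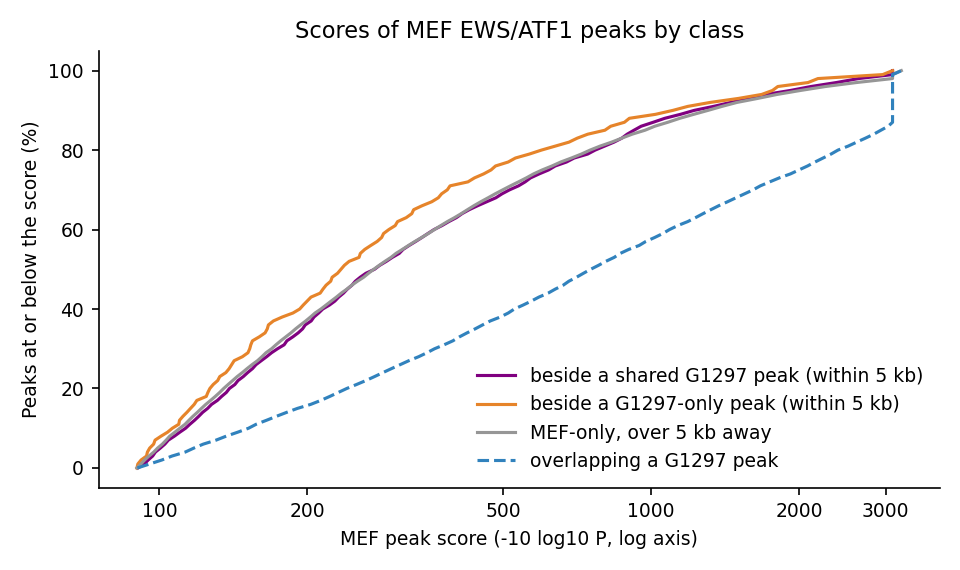
Cumulative share of MEF peaks (y axis, %) by score (x axis, log scale) for the sites beside a shared G1297 peak (purple), the sites beside a G1297-only peak (orange), remote MEF-only peaks (grey) and shared MEF peaks (dashed blue). The purple and grey lines run together (medians 273.9 and 272.9), the orange line lies slightly to their left (median 234.1), and shared peaks lie to the right (median 753.9).

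The 5 sites with the highest MEF scores all had a score of exactly 3100, which 21 of the sites and 1062 MEF peaks in all carried, so the score does not rank them further and the widest are given. The widest was chr14:8681308-8684898, 3591 bp wide and 441 bp from a shared G1297 peak. Its neighbours at that locus were a G1297 peak with a score of 316.36 and a shared MEF peak with a score of 2706.51. A second, chr10:116176355-116179894, was 3540 bp wide with a gap of 4894 bp, and the shared MEF peak at its locus scored 1228.99.

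The next was chr10:14249062-14252480, which was 3419 bp wide and 796 bp from a G1297 peak with a score of 204.09. The last of the 5 were chr11:45083318-45085821, with a gap of 2689 bp, and chr10:13557024-13559359, with a gap of 2185 bp. All 5 lay beside a shared G1297 peak, and at 4 of the 5 loci the MEF-only site scored above the shared MEF peak. At the fifth both had a score of 3100. These sites were picked for a score near the highest of the list, 3233.06, so the shared peak could hardly score higher.

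Over all sites beside a shared G1297 peak, the opposite order was the more common. At the 1396 sites beside a shared G1297 peak, both the MEF-only peak and the MEF peak on the G1297 site itself come from the MEF list, and their scores can be compared directly. The MEF-only peak had the lower score at 1146 of these sites (82.1%, 80.0 to 84.1), the higher at 248 (17.8%), and an equal one at 2. The shared MEF peak had a median score of 1363 (1225 to 1471), and the median ratio of its score to that of the MEF-only peak was 3.57 (3.21 to 3.86). At 302 sites (21.6%) the ratio exceeded 10. A score of 3100 was taken as it stands in these ratios, although it does not rank the peaks that carry it. The MEF-only peak was also the narrower at 75.9% of the sites. Shared MEF peaks had a higher median score than remote MEF-only peaks as well (753.9 against 272.9). Part of the order of the scores may therefore follow from the classes alone, and how large a part was not tested.

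**Figure D3:**
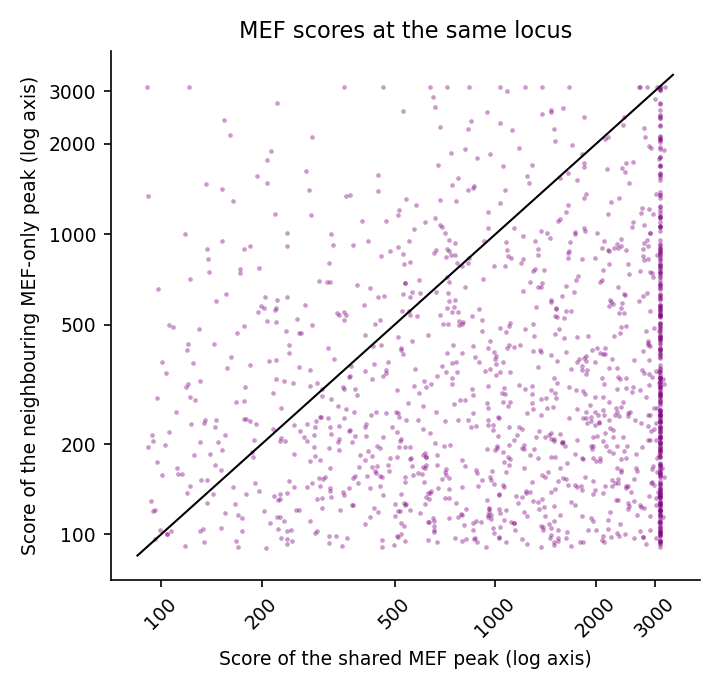
Score of each MEF-only site (y axis) against the score of the MEF peak on the neighbouring shared G1297 site (x axis), both on log axes, for 1396 sites; the line marks equal scores. Of the points, 1146 lie below the line and 248 above it, and the column of points on the right is the score of 3100 that many peaks share.

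The 3 sites picked for exceeding the shared MEF peak most show the opposite arrangement, with the higher MEF score beside the G1297 site and not on it. At chr3:131529989-131532241 the MEF-only peak had a score of 3100, and the shared MEF peak had one of 91.06, with a gap of 4054 bp to the G1297 peak. At chr8:126415259-126417260 the scores were 3100 and 121.5, with a gap of 1628 bp. At chr5:151040225-151041533 they were 2402.78 and 154.59, a ratio of 15.5, with a gap of 4783 bp. The G1297 peaks at these 3 loci had scores of 344.24, 195.92 and 182.96, respectively.

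Whether a shared site had a MEF-only neighbour followed its score in the MEFs more than its score in G1297. The MEF-only neighbour and the MEF score come from the same list, and the G1297 score does not. G1297-only neighbours were not counted by G1297 score, so the contrast cannot be called particular to the MEFs. Shared MEF peaks with such a site beside them had a median MEF score of 1265 (1116 to 1409, n = 1173), against 656.1 (626.7 to 688.1, n = 3855) for shared MEF peaks without one. When shared MEF peaks were divided into 10 groups of about equal size by MEF score, the share with a MEF-only site was 12.1% in the lowest group and 35.2% in the highest, and each group had a larger share than the one below it. On the G1297 side the medians were close, at 329.4 (305.1 to 367.2) for shared G1297 peaks with a MEF-only site and 346.7 (333.3 to 365.6) for those without. Across 10 groups of the G1297 list by score, the share of shared peaks with a MEF-only site lay between 21.0% and 27.4% in the lower 9 groups and was 17.2% in the highest.

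Expressed as percentiles within each list, shared G1297 peaks with a MEF-only site had a median percentile of 84.8 in the MEF list and 57.0 in the G1297 list. Without such a site the medians were 71.9 and 58.7. The lists differ in length and in the peaks they hold. A percentile of one list is therefore not set against that of the other, only peaks with a site against those without. A dependence on MEF score was also present away from G1297 sites: among remote MEF-only peaks, the share with another MEF-only peak within 5000 bp was 29.0% in the lowest of 10 score groups and 42.2% in the highest. Among shared MEF peaks, counted in this same way, it was 13.3% and 41.2%. The groups of the 2 classes span different scores. At scores from 754 to 1091, 26.2% (22.4 to 30.3) of shared peaks had such a neighbour, against 40.4% (38.2 to 42.5) of remote peaks at scores from 752 to 1307. Only MEF-only neighbours enter these shares, which leaves out the shared neighbours of shared peaks. Over all scores, 26.6% of shared and 33.6% of remote peaks had another MEF-only peak within 5000 bp. With any other MEF peak counted, the shares were 39.6% and 33.8%. Read depth, which sets how many weak neighbours pass the threshold, is unknown, and its part in these shares was not tested.

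**Figure D4:**
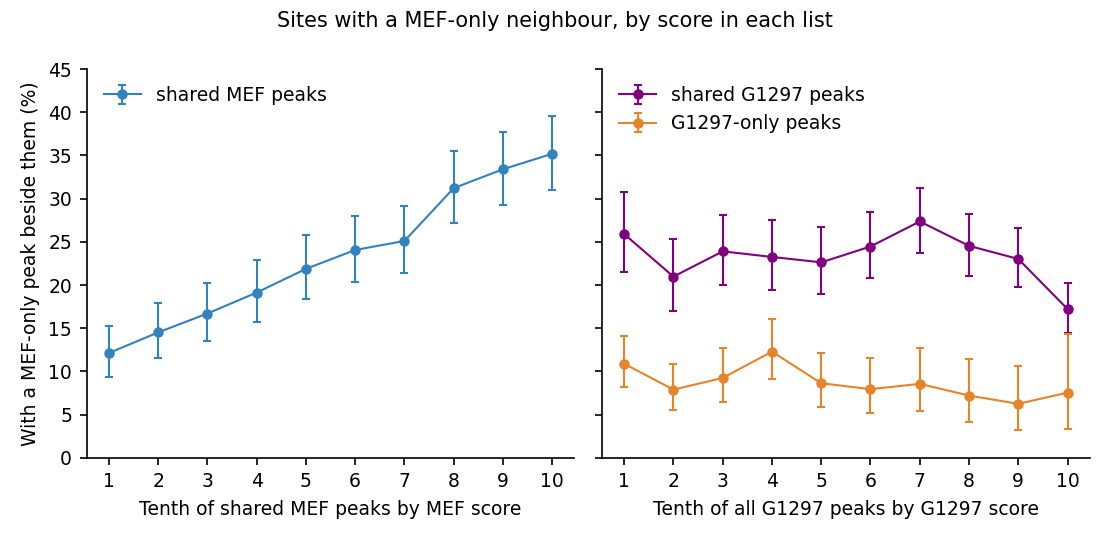
Share of sites with a MEF-only site assigned to them (y axis, %) across 10 score groups from lowest to highest, for shared MEF peaks by MEF score (left) and for shared and G1297-only G1297 peaks by G1297 score (right); bars are 95% Clopper-Pearson intervals. The left line climbs from 12.1% to 35.2%, whereas shared G1297 peaks stay between 17.2% and 27.4%.

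Many of the sites had further MEF peaks nearby, which for sites beside a shared peak is in part given by their class. With neighbours counted out to the distance at which ROSE, a program that joins nearby enhancers, stitches peaks by default, 58.6% (56.2 to 61.0) of the sites had at least 2 other MEF peaks around them, against 21.3% of remote MEF-only peaks and 28.2% of shared MEF peaks. With the MEF list limited by score to the length of the G1297 list, the share was 27.6% of the sites and 6.98% of remote peaks. For sites beside a shared G1297 peak, at 65.8%, 1 of these neighbours is the shared peak itself and so is given by the class. Their share is thus that of sites with at least 1 neighbour more than the class gives. Of remote MEF-only peaks 47.4% had no other MEF peak in that distance, and of shared MEF peaks 41.1%. The difference from 21.3% and 28.2% is therefore larger than a like comparison would give. The share of 27.6% holds the same given neighbour. For the 297 sites beside a G1297-only peak, no such neighbour is given, and the share was 24.9% (20.1 to 30.2), close to that of remote peaks. Another MEF-only peak within 5000 bp was found for 29.6% (27.4 to 31.8) of the sites and 33.6% (33.0 to 34.3) of remote MEF-only peaks. By this count, other MEF-only peaks within 5000 bp were no more frequent around the sites than around remote peaks. However, a MEF peak on the neighbouring G1297 peak is classed as shared and cannot enter the count. This can lower the share of the sites by definition, so the shares are not a like comparison.

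Of the 1446 G1297 peaks with a site assigned to them, 1232 had 1, 184 had 2, 27 had 3 and 3 had 4. Where there were at least 2, they lay on both sides of the G1297 peak at 114 of 214 peaks (53.3%, 46.3 to 60.1). The sites had no preferred side along the chromosome, with 864 of 1693 (51.0%) at lower coordinates than the G1297 peak. At 105 sites (6.20%) a G1297 peak lay within 5000 bp on both sides.

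The 3 G1297 peaks with 4 sites each differed in where the strongest MEF binding was. At chr10:119736486-119738069, a G1297 peak with a score of 3100, the shared MEF peak scored 2857.53. The 4 MEF-only sites, 3 on one side and 1 on the other, scored 440.91, 229.01, 827.83 and 913.12. Here the shared peak was the strongest in the MEFs. At chr4:82951820-82952423, with a G1297 score of 167.82, the shared MEF peak scored 238.06, and the 4 sites scored 92.61, 137.5, 1011.5 and 620.13, so that 2 of them stood above it. At chr7:105690973-105691876, with a G1297 score of 239.19, the shared MEF peak scored 1471.22 and the 4 sites scored only 105.35, 207.67, 99.31 and 302.25.

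The 297 sites beside a G1297-only peak mark loci where each cell type had its own peak and neither was found in the other at that position. They lay beside 271 G1297-only peaks, so some of these count more than once below. For 256 of the sites (86.2%, 81.7 to 89.9) the MEF-only peak and the G1297-only peak were each the nearest peak of the other list, so that they form a side-by-side pair. Over all 297 sites, both scores were under 200 at 74 (24.9%) and both were at least 500 at 8 (2.69%). The MEF score alone was under 200 at 42.1% of them and at least 500 at 23.6%. A given score need not mean the same enrichment in both lists. Whether the scores of neighbouring peaks go together was not tested. The G1297-only peaks involved had a median G1297 score of 177.2 (163.0 to 193.9), against 190.9 (184.4 to 200.5) for the other G1297-only peaks.

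Among the strongest pairs, chr19:36793981-36796103 had a MEF score of 1511.74 and lay 2528 bp from a G1297-only peak with a score of 1302.34. At chr7:144432913-144434226 a MEF score of 1075.7 faced a G1297 score of 1496.36 across 4716 bp. The closest pair was at chr3:147752900-147754051, where a MEF peak with a score of 900.44 ended 127 bp before a G1297-only peak with a score of 678.21. On the other side of that G1297 peak a weaker shared site followed, with scores of 173.78 in the MEFs and 275.79 in G1297, so binding at this locus was at 3 neighbouring positions, of which 1 was common to both cell types.

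At chr6:55168957-55170577 the MEF score was 772.26 and the G1297 score 676.04, with a gap of 901 bp. At chr1:185768324-185769689 the scores were 1692.5 and 563.31, with a gap of 1054 bp. These 5 pairs were picked for high scores on both sides. Whether reads below the threshold were present in the other cell type cannot be read from peak lists.

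**Figure D5:**
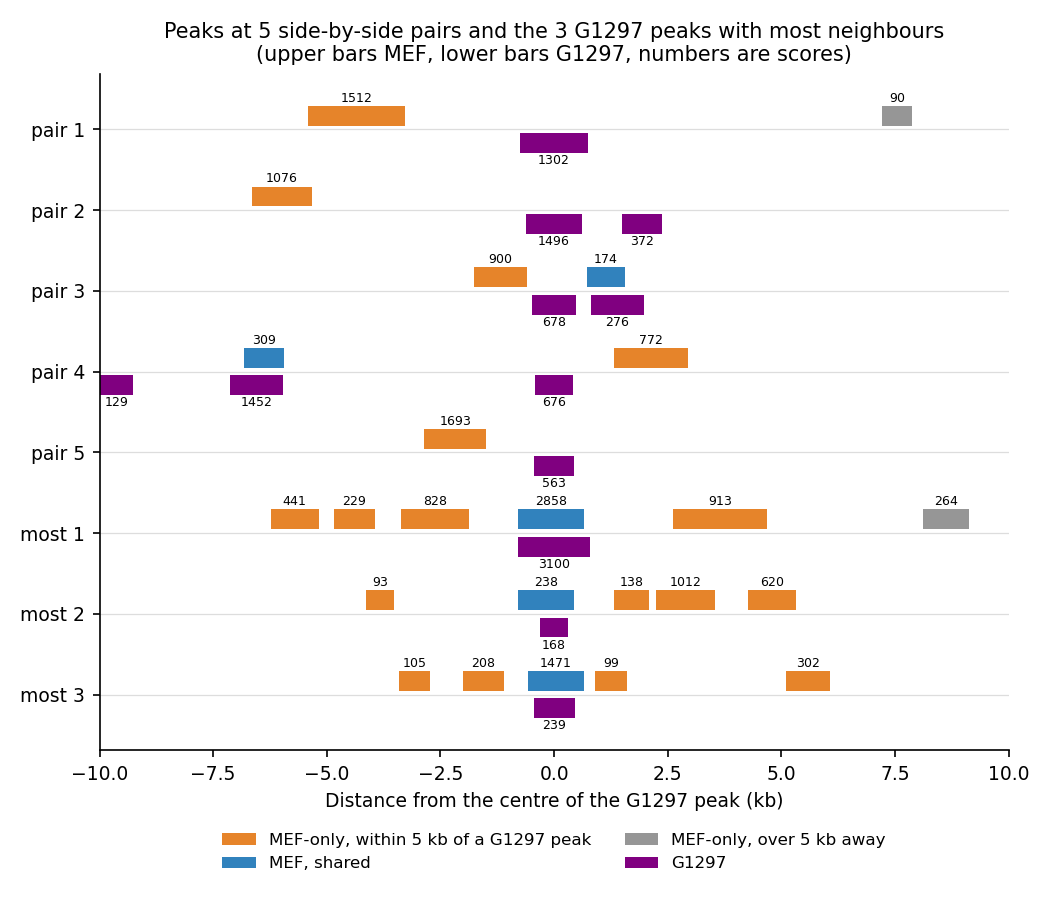
Peaks within 10 kb of the centre of the G1297 peak (x axis, kb) at the 5 strongest side-by-side pairs and at the 3 G1297 peaks with 4 sites each; upper bars are MEF peaks, lower bars G1297 peaks, drawn to scale, and the numbers are scores. In the pairs, the orange MEF-only peak stands next to a purple G1297 peak with no MEF bar above it, whereas in the last 3 rows a blue shared MEF peak lies on the G1297 peak among 4 orange ones.

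The reverse arrangement, a G1297-only peak beside a shared site, was also present. Of the 5084 shared G1297 peaks, 422 (8.30%, 7.56 to 9.09) had a G1297-only peak within 5000 bp and 1310 (25.8%, 24.6 to 27.0) had a MEF-only peak within 5000 bp. There were 3006 G1297-only and 22102 MEF-only peaks to be found, so these shares cannot be read as a preference of either cell type. Of the G1297-only peaks, 667 (22.2%) lay within 5000 bp of a MEF peak, which was a shared peak for 381 of them and a MEF-only peak for 286.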

How the data were processed

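HA ChIP-Seq peaks of G1297 and sarcoma-iPSC MEFs, 12 h after Dox, were used as deposited, 1 list per cell type. Per the labels, the authors' processing notes for these samples name Bowtie2 2.2.0, MACS 1.4.2 and build mm9. The score deposited by the authors with each peak is minus 10 times the log10 of its P value, with a threshold of 1e-09. Which libraries and inputs entered each list was not given in the sources used here. The lists hold no counts, so read depth is unknown. Libraries of G1297 with Ebf1-KRAB or Nanog-KRAB and all input libraries were not analysed here.

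Overlaps of at least 1 bp, gaps between edges and nearest peaks were obtained in Python with pandas 2.3.3 and numpy 2.4.6. The number of sites was checked with bedtools 2.31.1, and the steps were tested on simulated lists. Each site was assigned to its nearest G1297 peak. Where several MEF peaks overlapped a G1297 peak, the one with the highest score was used. Shares carry Clopper-Pearson 95% intervals from scipy 1.17.1 and medians carry order-statistic intervals. Peaks are not replicates of a condition, so no test was made.

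The sites, measures and alternatives were chosen with earlier results of these data known. Positions named in the text follow a rule: the 5 highest scores, the 3 smallest gaps, the 3 peaks on each side of the limit, the 5 side-by-side pairs with the highest smaller percentile of the 2 scores, the 3 G1297 peaks with most sites, and the 3 sites most above the shared MEF peak. The genome and annotation at hand were of GRCm38 and coordinates were not converted, so genes, promoters and sequences were not read. The alternatives were other gap limits, gaps between centres, higher score limits, a MEF list as long as the G1297 list, joined peaks, X and Y left out, a minimum gap and each G1297 peak counted once.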

Additional observations from a re-analysis of the deposited data

How the results depend on the processing

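Of 69 values recomputed, 41 stayed within 1.5 times the value given above, for counts, or within its 95% interval, for the other values, and 28 did not. The number of sites followed the limits: 789 at 2000 bp, 2783 at 10000 bp, 826 with both lists at scores of at least 200, 502 with the MEF list at 500 or more, and 399 with a MEF list as long as the G1297 list. Under those last 3 settings, which remove weak peaks by construction, the median MEF score was 483.1, 907.1 and 1069, the median width 1077.5, 1278 and 1346 bp, and the share with at least 2 other MEF peaks nearby was 51.5%, 32.3% and 27.6%, against 15.0%, 8.30% and 6.98% of remote peaks. In these shares too, the shared MEF peak counts as 1 neighbour of the sites beside it. With scores of at least 200 the median G1297 score beside the sites was 506.5. The share of sites beside a shared G1297 peak was 70.9% with the MEF list at 500 or more and 67.9% with equal list lengths, where 39.1% and 35.4% of all G1297 peaks were shared. It was 75.7% with MEF peaks within 1000 bp joined and 84.4% at 2000 bp. Joining left 1183 sites and gave a median width of 944 bp. It gave a share of 44.8% with at least 2 neighbours, against 14.7% of remote peaks. Gaps between centres left 1420 sites. The ratio of MEF-only peaks per 1 kb was 1.66 with joined peaks and 2.04 with equal list lengths. The MEF-only peak had the lower score for 84.2% of sites at 2000 bp, 79.8% at 10000 bp and also with joined peaks, 74.7% at 500 or more and 74.5% with equal lengths. Of the 31 sites described one by one, 15 still met the rule at 2000 bp, 31 at 10000 bp and 22 with gaps between centres. With both lists at 200 or more 17 did, 17 with the MEF list at 500 or more, 16 with equal lengths and 18 with joined peaks. A minimum gap of 1000 bp and each G1297 peak counted once were chosen after seeing the data. No paired analysis was possible because there is 1 list per cell type, and no replicate could be left out.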

Other observations

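Across the 19 autosomes the number of sites was between 44 on chromosome 19 and 129 on chromosome 6. As a share of the MEF-only peaks of a chromosome they made up between 5.46% on chromosome 18 and 11.4% on chromosome 6, and per 100 G1297 peaks they numbered between 16.5 on chromosome 4 and 27.0 on chromosome 14. The share of MEF-only peaks rose with the number of G1297 peaks per 100 MEF-only peaks of a chromosome (r = 0.76 over the 19 autosomes). Both measures are divided by the same number of MEF-only peaks, and the rule asks for a G1297 peak close by. A positive r is therefore in part given by the definitions, and nothing further is read from it. Chromosome 6, with the largest share, had 20.5 sites per 100 G1297 peaks. Copy number in the cells was not analysed here. Where a site lay beside a shared G1297 peak, the centre of the G1297 peak was displaced from the centre of the shared MEF peak towards the site by a median of 2.5 bp (-4 to 9), and it lay on the site's side in 50.9% of 1396 cases.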
